A study of Mus musculus with 3 samples.

Results

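The genes described here are 7 well-known targets of the transcription factor p53: Cdkn1a, Mdm2, Ccng1, Phlda3, Bax, Trp53inp1 and Gdf15. They were chosen by name, as the rows of these genes in a count table of 50507 gene symbols, and each of the 7 had counts. Tests were run on the 3013 genes with enough counts, and 6 of the 7 members were among these. Gdf15, with 104 counts in 127 libraries and 0 counts in 62 of them, did not reach that level and is given as counts.

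p53, encoded by Trp53 in the mouse, accumulates after DNA damage and other stress and then switches on genes that arrest the cell cycle, repair damage or kill the cell. Mdm2 is both a target of p53 and the ligase that marks it for degradation, which closes a feedback loop. In reprogramming of fibroblasts to pluripotent cells, p53 and its target p21, the product of Cdkn1a, are known as a barrier, and lowering p53 is a standard way to obtain more colonies.

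The study asked how chromatin and transcription regulators act in the first days of reprogramming. Primary wild-type mouse embryonic fibroblasts of the BL6 strain were infected (MOI of 1) with lentiviruses that carry rtTA and a tet-inducible cassette of Oct4, Sox2, Klf4 and c-Myc (tet-STEMCCA), and were reprogrammed at passage 2 with doxycycline in a medium that holds chiron, an Alk5 inhibitor, ascorbic acid and LIF. In the screen, a lipid reagent brought in 40 nM of pooled siRNAs, aimed at 1 gene out of 33 or at none (nt, non-targeting), or no siRNA at all (Mock), 1 day before induction, and their RNA stands for day 6. The time course, day 0 to day 6 (Day00 to Day06), came from cells that carried the same cassette but were not transfected. All groups thus share the transduction, and from day 0 on the induction.

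RNA was read by CEL-Seq2, which counts the 3′ ends of transcripts through unique molecular identifiers. The 3 samples of the series are 3 sequenced pools, 1 per replicate, of 41 to 43 barcoded libraries each, and the condition of a library was read from its column name. The tests used 127 libraries: 98 of siRNAs, 21 of the daily series, 5 of Mock and 3 of nt, 3 per condition except Mock, with 5, and siMtf1, with 2. Total counts ran from 29656 to 235292 per library, from 75100 to 143156 in nt and from 41192 to 85438 in sip53. Levels are given as CPM, the count of a gene over the TMM-scaled total of all tested genes in its library, brought to the usual common total, and since CEL-Seq2 reads only 3′ ends they are compared between conditions, not between genes. The labels number the replicates but do not say whether they were separate cultures, so p-values measure the spread between these libraries. At Day00 each of 9 fibroblast markers was detected, with a summed level of 6445 to 8152 CPM, and 4 endothelial markers were at 0 counts. Of 5 macrophage markers, Ptprc, Tyrobp and Csf1r were at 0 counts at Day00 and Lyz2 held 31 counts.

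The sequences that bear on these comparisons are the siRNAs meant to lower p53 and the sites by which p53 is known to reach its targets. For Trp53 the screening library lists 2 siRNAs, which give the sense strands below, 5′ to 3′, with the target-matching bases in capitals and the overhang in lower case.
siRNA 69753: GGAUGUUGAGGAGUUUUUUtt
siRNA 69843: GGAAAUUUGUAUCCCGAGUtt
The first matched chr11:69587410-69587428 and the second chr11:69588661-69588679 (GRCm38, plus strand), both in the coding sequence of Trp53. The first also matched a transcript of the pseudogene Trp53-ps. The methods give 3 pooled siRNAs per gene, so these 2 may not be the whole pool. The listing does not say whether the same siRNAs were used for the libraries named sip53.

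p53 binds pairs of a 10-base half-site. An exact match to the p53 half-site consensus, on either strand, was found in the promoter window (250 bases before to 50 bases after the start, RefSeq, GRCm38.p6) of 4 of the 6 members that the promoter table holds, Cdkn1a, Mdm2, Ccng1 and Bax, against 9.55% of all gene symbols in it, counted in the same way, and 8.36% of its 32851 promoters. Cdkn1a and Gdf15 have more than 1 promoter there, and the matches of Cdkn1a are in 1 of them. No exact match was found in the windows of Phlda3 and Gdf15. The 60 bases around the matches are shown 5′ to 3′ on the strand of the gene, with the half-site in capitals.
Cdkn1a, chr17:29090892-29090951, plus strand: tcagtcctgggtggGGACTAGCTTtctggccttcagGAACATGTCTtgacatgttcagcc
Mdm2, chr10:117710910-117710969, minus strand: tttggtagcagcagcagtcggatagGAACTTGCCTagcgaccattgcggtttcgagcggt
Ccng1, chr11:40755437-40755496, minus strand: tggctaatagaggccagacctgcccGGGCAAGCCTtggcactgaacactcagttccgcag
Bax, chr7:45467065-45467124, minus strand: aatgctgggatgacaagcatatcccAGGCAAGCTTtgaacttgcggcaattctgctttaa
Cdkn1a was the member with a pair of matches, which begin at -73 and -51 from the start. A match is a description of letters and does not show binding in these cells.

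On GRCm38, Cdkn1a lies at chr17:29090976-29100727, Mdm2 at chr10:117688875-117710758, Ccng1 at chr11:40748552-40755311 and Phlda3 at chr1:135766119-135769136. Bax lies at chr7:45461697-45466898, Trp53inp1 at chr4:11156431-11174379 and Gdf15 at chr8:70629393-70632456. Bax shares exons with the annotated gene Gm45808 on the same strand, and Cdkn1a overlaps the antisense gene AC167363.2. Whether either overlap touched the counts was not tested.

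The first comparison asked whether the targets were lower after siRNA against Trp53 than after nt. Cdkn1a was higher in sip53 than in nt, and none of the other 5 tested members passed the test. At an unadjusted p under 0.05 there were 3 members, Cdkn1a and Phlda3 on the higher side and Ccng1 on the lower. The share of all genes at this unadjusted threshold is not given, here or below, so such counts have no background beside them. The transcript of Trp53 itself was too rare to check the knockdown. It held 1, 2 and 2 counts in sip53 replicates 1, 2 and 3 and 3, 3 and 2 counts in those of nt, which are 26.9 CPM of the raw totals (95% counting interval 8.75 to 62.9) and 26.8 CPM (11.6 to 52.8). Against all other transfected libraries the ratio was 1.11, with an interval of 0.357 to 2.64, so that a knockdown was not detectable at this depth. Which siRNA each library received therefore rests on the column names, and sip53 means the libraries of that name.

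Cdkn1a encodes p21, the inhibitor of cyclin-dependent kinases through which p53 arrests the cell cycle. Its level was 903, 884 and 697 CPM in sip53 replicates 1, 2 and 3 and 383, 404 and 343 CPM in those of nt. The lowest sip53 library lay above the highest nt library. The difference was 1.12 on the log2 scale (SE 0.24, edgeR adjusted p = 0.00157), higher in 3 of 3 replicates. Of all genes, 1.96% were called in this comparison. Without 1 replicate at a time the adjusted p was 0.0177 to 0.0328, and it was 0.0989 when no gene was filtered out.

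The other members gave values on both sides of 0. Ccng1, which encodes cyclin G1 and is among the most regular p53 targets, had 1029, 856 and 850 CPM in sip53 against 1332, 1481 and 1225 CPM in nt. The groups did not overlap, and the difference of -0.56 (SE 0.19) had an adjusted p of 0.111. Phlda3, which encodes an inhibitor of the kinase Akt, had 357, 200 and 223 CPM in sip53 against 150, 120 and 147 CPM in nt, a difference of 0.88 (SE 0.36, adjusted p = 0.211). Bax, whose protein permeabilizes mitochondria in apoptosis, had 168, 314 and 418 CPM in sip53 and 550, 254 and 531 CPM in nt (-0.54, SE 0.28, adjusted p = 0.387). Both groups of Bax were widely spread and overlapped. Trp53inp1, which encodes a nuclear protein of the stress response, differed by -0.68 (SE 0.42, adjusted p = 0.502), and Mdm2 by 0.23 (SE 0.40, adjusted p = 0.890). Gdf15, which encodes a secreted stress cytokine, had 2 counts in sip53, 10.8 CPM of the raw totals with an interval of 1.31 to 38.9, and 4 counts in nt, 13.4 CPM with an interval of 3.65 to 34.3. The median difference of the 6 tested members was -0.15, beside -0.04 over all 3013 genes.

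Set against the mean of the other 34 transfected conditions, sip53 differed in 0 of 6 members, where edgeR called 0.797% of all genes. At an unadjusted p under 0.05 there were 2, Cdkn1a (0.45, SE 0.17, adjusted p = 0.266) and Phlda3 (0.57, SE 0.26, adjusted p = 0.420), and DESeq2 and limma also called 0. The 2 comparisons share the sip53 libraries. Fibroblast genes differed as well: their summed level was 2397 to 3003 CPM in sip53 and 1389 to 1799 CPM in nt, and 2 of 9 were called higher in sip53. In bulk RNA a larger share of a cell type and more RNA per cell cannot be told apart, and the part of the fibroblast genes in the Cdkn1a result was not tested.

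**Figure D1:**
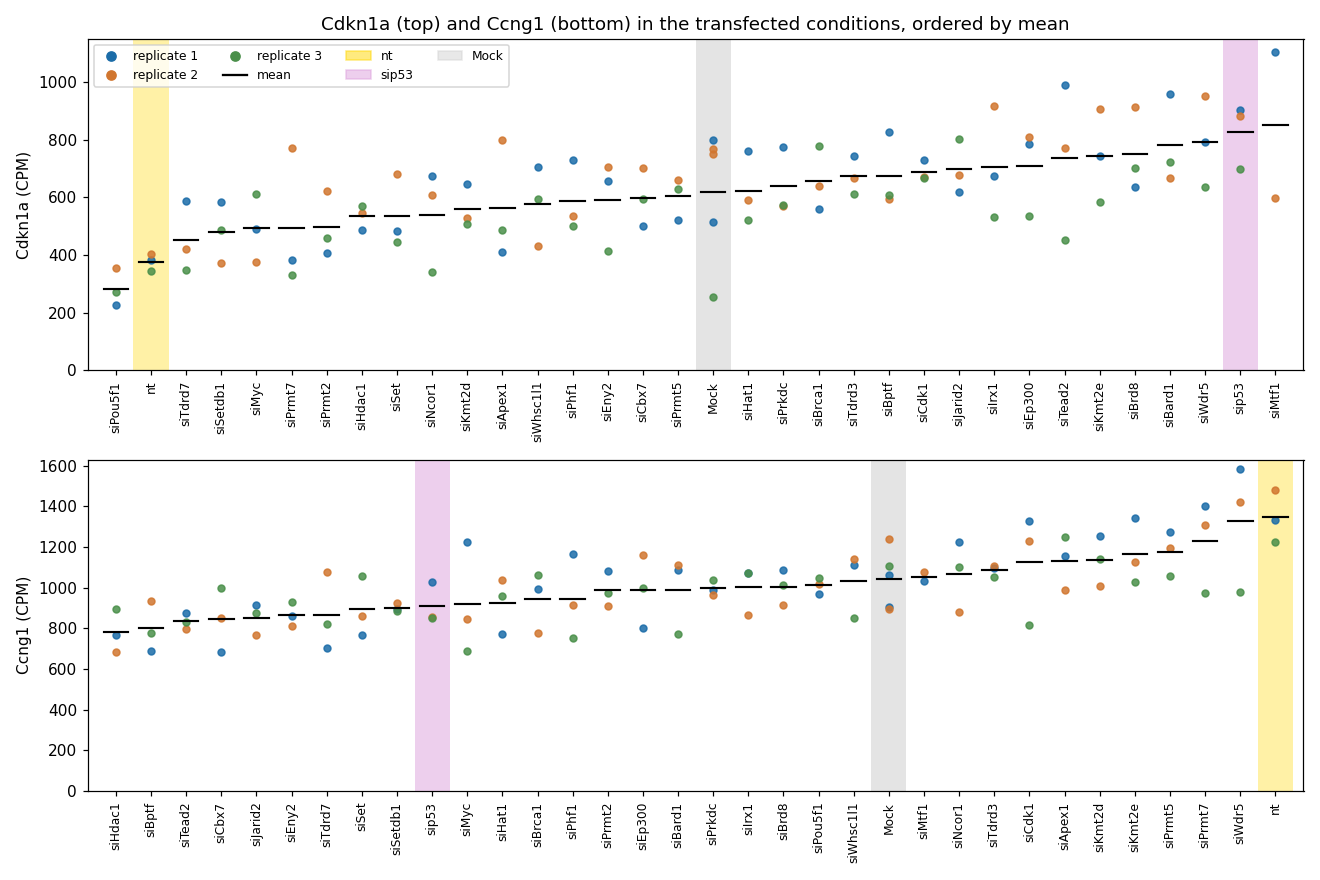
CPM of Cdkn1a (top) and Ccng1 (bottom) in each transfected library, with 34 conditions ordered by mean. Points are libraries coloured by replicate, bars are means, and bands mark nt, Mock and sip53. nt is the second condition from the left for Cdkn1a and the last on the right for Ccng1.

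The nt libraries stood apart from most transfected libraries in Cdkn1a and Ccng1, which touches each comparison with nt. nt had the second lowest mean of Cdkn1a of the 35 transfected conditions and the highest mean of Ccng1. Of 103 other transfected libraries, 93 lay above the highest nt library in Cdkn1a and 5 below the lowest. For Ccng1, 92 lay below the lowest nt library and 1 above the highest. Against the mean of the other transfected conditions, nt was lower in Cdkn1a by 0.70 on the log2 scale (SE 0.18, adjusted p = 0.0200) and higher in Ccng1 by 0.44 (SE 0.12, adjusted p = 0.0444). These were 2 of 6 members, beside 1.03% of all genes. Both calls were lost whichever 1 replicate was left out, with an adjusted p of 0.145 to 0.199 for Cdkn1a and 0.154 to 0.470 for Ccng1. nt also had the highest mean of Trp53inp1 (99.9, 269 and 253 CPM), which did not pass the test (0.47, SE 0.25, adjusted p = 0.482). The summed level of the fibroblast genes in nt ranked 31st of the 35 conditions, and its part in these differences was not tested.

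Mock, which had the reagent but no siRNA, did not differ from nt by the test. edgeR called 0 of 6 members where it called 1.56% of all genes, with 2 at an unadjusted p under 0.05 and 0 called by DESeq2 or limma. The 5 Mock libraries held 254, 515, 749, 770 and 800 CPM of Cdkn1a, so that 1 library lay below all nt libraries and 4 above them. The difference from nt was 0.61 (SE 0.23, adjusted p = 0.189). The low library is the one of replicate 3, in which Trp53inp1 was at its highest, 418 CPM, against 103 to 223 CPM in the other Mock libraries.

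Across all 35 transfected conditions, 4 of the 6 tested members differed, beside 45.1% of all genes. These were Cdkn1a (adjusted p = 1.56e-07), Phlda3 (0.000149), Bax (0.000550) and Ccng1 (0.0145), and not Mdm2 (0.0662) or Trp53inp1 (0.177). Mean levels of Cdkn1a ran from 283 CPM in siPou5f1 and 377 CPM in nt at the low end to 828 CPM in sip53 and 851 CPM in siMtf1 near the high end. In this order the libraries of each condition overlapped those of the next one in all 34 neighbouring pairs. Phlda3 ran from 63.8 CPM in siPrkdc to 286 CPM in siBrd8, and Bax from 259 CPM in siWdr5 to 601 CPM in siPou5f1. Ccng1 had the narrowest range, 781 CPM in siHdac1 to 1346 CPM in nt, or 1.72-fold. Mdm2 ran from 60.8 CPM in siPou5f1 to 276 CPM in siWdr5, and Trp53inp1 from 64.6 CPM in siPou5f1 to 207 CPM in nt. For Mdm2 the lowest pair, siWhsc1l1 and siPou5f1, did not overlap, while for the other members every neighbouring pair did.

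Against nt, 22 of the tests of a member in an siRNA passed, and most of them were of Cdkn1a. Cdkn1a was called higher in 13 of 33 siRNAs, where 1.29% of all such tests called a gene higher and 1.28% lower. Its fitted difference was above 0 in 32 of 33 siRNAs. Among the 13, higher by 0.85 to 1.12 on the log2 scale, were siBard1, siBrca1, siBrd8, siCdk1, siEp300, siIrx1, siJarid2, siKmt2e, siMtf1, sip53, siTead2 and siWdr5. All 33 comparisons share the same 3 nt libraries, so that these counts are not independent of each other or of the low Cdkn1a level of nt. With nt and Mock together as control Cdkn1a was called in 6 siRNAs, and against the mean of the other transfected conditions 1 siRNA was called higher and 1 lower. The 22 calls over all members came to 5 to 7 with 1 replicate left out, 12 with nt and Mock together and 5 without the replicate in the model.

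The other members gave few calls against nt. Ccng1 was called lower in siHdac1 (-0.73), siBptf (-0.72), siTead2 (-0.68) and siEny2 (-0.61), with adjusted p from 0.0326 to 0.0472, and its difference was below 0 in each of the 33 siRNAs. These 4 calls were lost whichever 1 replicate was left out (adjusted p of 0.105 to 0.436), and each was kept in 1 to 3 of 8 other alternatives. Trp53inp1 was called lower in siNcor1 and siPou5f1, Phlda3 higher in siBard1, Mdm2 higher in siWdr5 and Bax lower in siWdr5. With nt and Mock together, Ccng1 was called in 0 siRNAs.

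**Figure D2:**
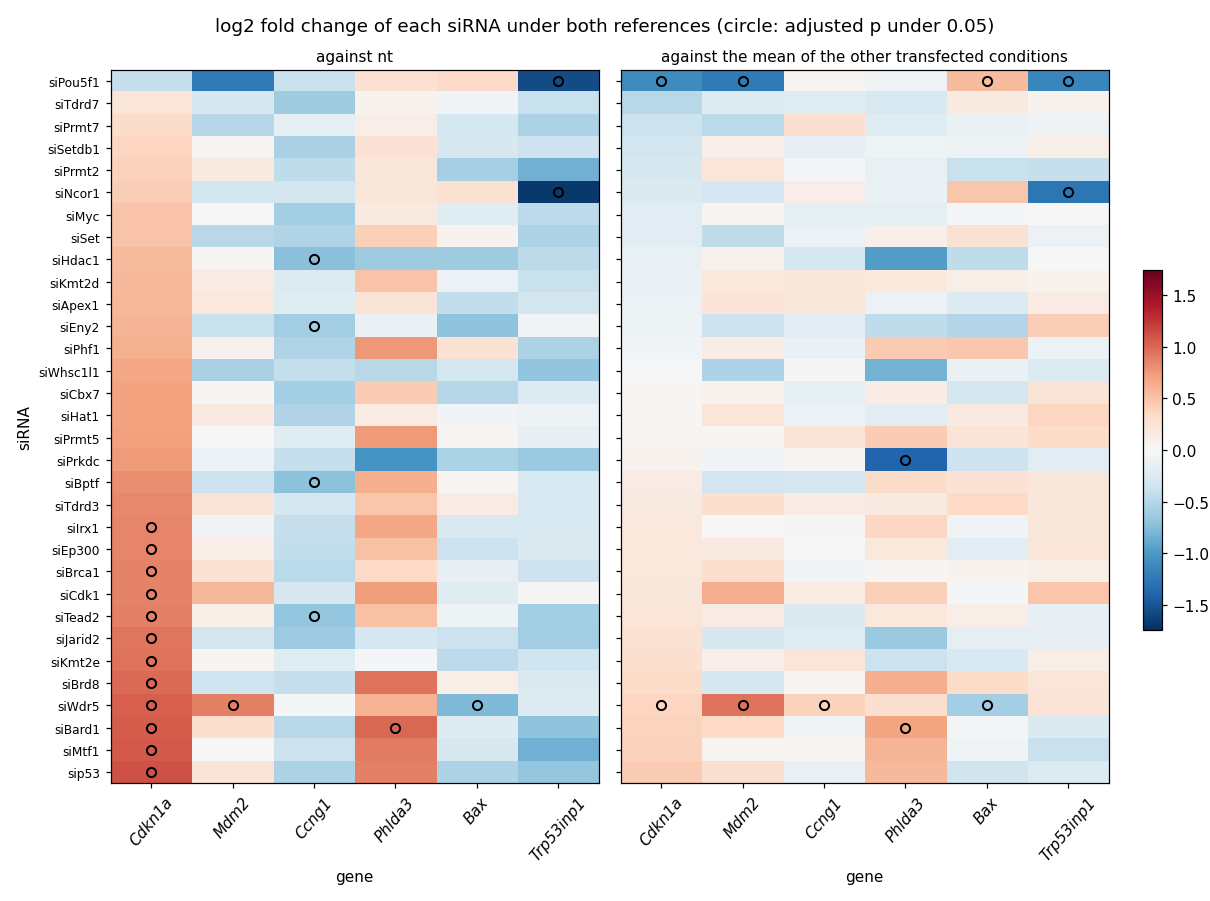
Fitted log2 fold change of 6 targets (columns) in 32 siRNAs (rows), against nt on the left and against the mean of the other transfected conditions on the right. Red is higher, blue is lower, and a circle marks an adjusted p under 0.05. The left column of Cdkn1a is red in all but 1 row and carries 12 circles, and the right column carries 2, in siPou5f1 and siWdr5.

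Set against the mean of the other 34 transfected conditions, a control that does not rest on nt alone, 11 member tests passed, where 2.70% of all such tests called a gene higher and 1.59% lower. They came from 5 siRNAs: siPou5f1 and siWdr5 with 4 each, and siBard1, siNcor1 and siPrkdc with 1 each. These siRNAs differed in how many genes they called in all: 38.7% of genes in siWdr5, 15.6% in siPou5f1, 14.0% in siBard1, 11.6% in siNcor1 and 5.08% in siPrkdc. With 1 replicate left out at a time 5 to 7 were called.

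siPou5f1 targets Oct4, a factor of the reprogramming cassette, and its means of Cdkn1a, Mdm2 and Trp53inp1 were the lowest of all transfected conditions. Cdkn1a stood at 225, 355 and 270 CPM, beside a median of 622 CPM over the libraries of the conditions other than nt. It was lower by 1.11 than the other conditions (SE 0.21, adjusted p = 2.29e-05), in 3 of 3 replicates. This call was kept whichever 1 replicate was left out (adjusted p of 0.000230 to 0.00395).  The values of Mdm2 were 67.5, 47.3 and 67.6 CPM (-1.23, SE 0.40, adjusted p = 0.0209). Those of Trp53inp1 were 45.0, 47.3 and 101 CPM (-1.14, SE 0.39, adjusted p = 0.0323). Bax went the other way, with 900, 473 and 428 CPM (0.55, SE 0.18, adjusted p = 0.0259), and its value in replicate 1 was the highest of any transfected library. The calls of Mdm2 and Trp53inp1 were lost whichever 1 replicate was left out (adjusted p of 0.0820 to 0.171 and 0.113 to 0.148). That of Bax was lost without replicate 1 (0.17, adjusted p = 0.797). Ccng1 (0.03, SE 0.14) and Phlda3 (-0.07, SE 0.28) did not pass. Against nt, where 5.77% of all genes were called, Trp53inp1 was called (-1.56, SE 0.46, adjusted p = 0.0201), and Cdkn1a was not (-0.40, SE 0.29, adjusted p = 0.508). The call of Trp53inp1 against nt was lost without replicate 2 or 3 (adjusted p = 0.210 and 0.126). Fibroblast genes were at their lowest in the same libraries, 789 to 1159 CPM summed, with 5 of 9 called lower than in the other conditions, and their part was not tested. Pou5f1 itself had 0 counts in siPou5f1, which allows a ratio to the other libraries of up to 4.12.

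siWdr5 targets a subunit of histone H3 lysine 4 methyltransferases, and its means were the highest of Mdm2 and the lowest of Bax among the transfected conditions. Mdm2 stood at 251, 284 and 294 CPM. It was higher by 0.95 than the other conditions (SE 0.22, adjusted p = 0.000231) and by 0.88 than nt (SE 0.33, adjusted p = 0.0342), without overlap with nt. Cdkn1a, at 792, 952 and 636 CPM, was higher by 1.05 than nt (SE 0.22, adjusted p = 0.000102) and by 0.38 than the other conditions (SE 0.14, adjusted p = 0.0263). Bax, at 211, 242 and 323 CPM, was lower by 0.77 than nt (SE 0.26, adjusted p = 0.0159) and by 0.59 than the other conditions (SE 0.20, adjusted p = 0.0107). Ccng1 was close to nt (-0.04, SE 0.17) and above the other conditions (0.40, SE 0.12, adjusted p = 0.00511). The 3 members called against nt stand beside 27.2% of all genes. With 1 replicate left out at a time, Mdm2 against the other conditions and Cdkn1a against nt kept their calls (adjusted p of 0.000699 to 0.0129 and 0.00123 to 0.0151). Mdm2 against nt lost its call each time (0.0704 to 0.199). Bax lost its call against the other conditions without replicate 1 (0.101) and against nt without replicate 1 or 3 (0.196 and 0.161). Against the other conditions, Cdkn1a and Ccng1 were called only without replicate 3 (0.0279 and 0.000559), and not without replicate 1 or 2 (0.0583 to 0.389). siWdr5 also had the highest summed level of fibroblast genes, 4266 to 5002 CPM, with 8 of 9 called higher than in the other conditions. Their part in the values of the members was not tested. Wdr5 held 7 counts in siWdr5, a ratio to the other libraries of 0.940 with an interval of 0.373 to 1.97. Trp53 held 5, 5 and 6 counts in siWdr5, and in the fit that also holds low genes it was higher than in the other conditions (1.22, SE 0.48, adjusted p = 0.0329).

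siBard1 and siBrca1 target the partners of an E3 ligase that acts in the repair of DNA breaks. In siBard1, Phlda3 stood at 271, 291 and 285 CPM, above each nt library, and was higher by 1.00 than nt (SE 0.32, adjusted p = 0.0245) and by 0.70 than the other conditions (SE 0.21, adjusted p = 0.0127). Cdkn1a, at 958, 668 and 722 CPM, was higher by 1.06 than nt (SE 0.22, adjusted p = 0.000256), and the difference of 0.39 from the other conditions had an adjusted p of 0.0520. These 2 calls against nt stand beside 10.3% of all genes. In siBrca1, Cdkn1a was the 1 member called, at 558, 638 and 777 CPM, beside 4.22% of all genes (0.86, SE 0.24, adjusted p = 0.0189), and its difference from the other conditions was 0.19 (SE 0.17, adjusted p = 0.680). Without 1 replicate at a time the siBrca1 call was lost, with an adjusted p of 0.0514 to 0.483, that of Phlda3 in siBard1 against nt as well (0.0871 to 0.219), and that of Cdkn1a in siBard1 was kept (0.00157 to 0.0251). Phlda3 in siBard1 against the other conditions lost its call without replicate 2 or 3 (0.116 and 0.125). Summed fibroblast genes were at 2604 to 3609 CPM in siBard1 and 2257 to 3244 CPM in siBrca1, both above the range of nt, and their part was not tested. Brca1 held 4 counts in siBrca1, a ratio to the other libraries of 1.15 (interval 0.309 to 3.00), and Bard1 had 0 counts in siBard1, which allows a ratio of up to 2.94.

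siNcor1 targets a co-repressor of nuclear receptors, and Trp53inp1 was the 1 member called there. Trp53inp1 stood at 102, 62.8 and 50.0 CPM, lower by 1.68 than nt (SE 0.46, adjusted p = 0.0127, beside 4.45% of all genes called) and by 1.26 than the other conditions (SE 0.39, adjusted p = 0.0153). Without replicate 3 the adjusted p rose to 0.514 and 0.609, and without replicate 2 it was 0.143 and 0.0488. Ncor1 held 12 counts in siNcor1, a ratio to the other libraries of 0.584 with an interval of 0.300 to 1.03. siPrkdc targets the catalytic subunit of DNA-dependent protein kinase, which acts in the joining of broken ends, and its mean of Phlda3 was the lowest of the transfected conditions. The level was 53.5, 59.0 and 79.1 CPM, beside a lowest nt library of 120 CPM. The difference from the other conditions was -1.39 (SE 0.35, adjusted p = 0.00600) and that from nt -1.03 (SE 0.46, adjusted p = 0.300). The call against the other conditions was lost without replicate 1 or 3 (adjusted p = 0.0529 and 0.112). Prkdc held 3 counts in siPrkdc, a ratio to the other libraries of 1.47 with an interval of 0.296 to 4.47. Summed fibroblast genes were at 1231 to 1611 CPM in siNcor1 and at 2224 to 2433 CPM in siPrkdc, and their part was not tested.

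Over the 35 transfected condition means, the log2 level of a member was set beside the summed fibroblast genes, as a description. The correlation was 0.64 for Cdkn1a, 0.70 for Mdm2, 0.45 for Trp53inp1, 0.25 for Ccng1, 0.22 for Phlda3 and -0.60 for Bax. Without siPou5f1 and siWdr5, the conditions at the ends of the fibroblast range, it was 0.46 for Cdkn1a, 0.40 for Mdm2, 0.20 for Trp53inp1, 0.10 for Ccng1, 0.21 for Phlda3 and -0.41 for Bax. The conditions share the scaling and, within a replicate, the sequenced pool.

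**Figure D3:**
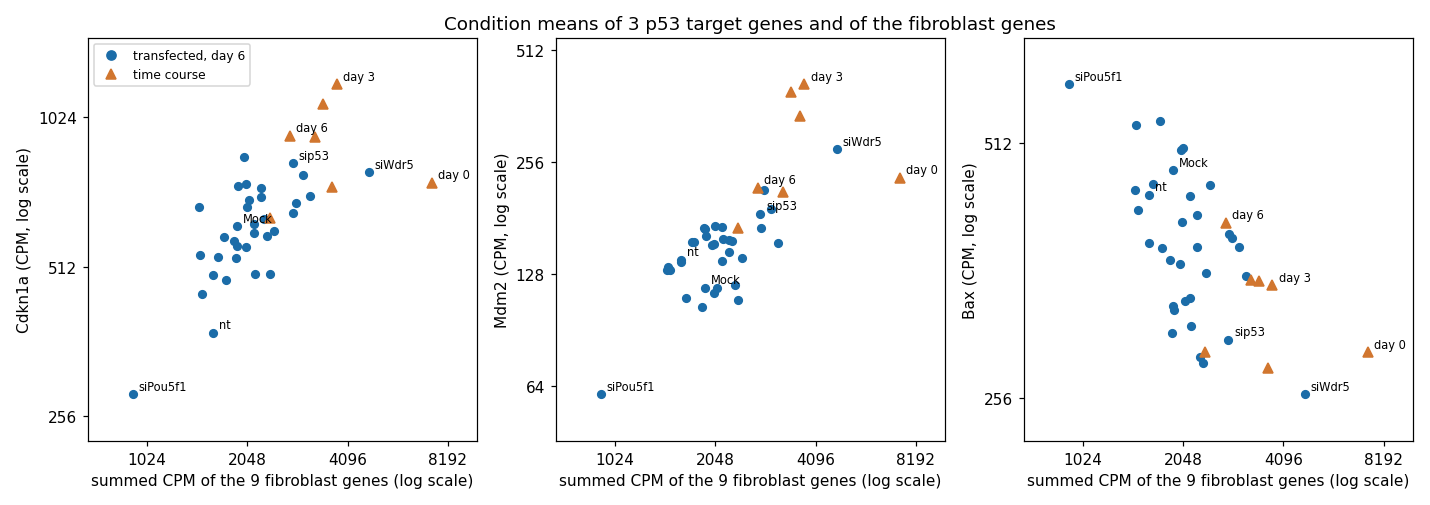
Mean CPM of Cdkn1a, Mdm2 and Bax (vertical axes, log scale) against the summed mean CPM of 9 fibroblast genes (horizontal axis, log scale). Circles are the 35 transfected conditions and triangles the 7 days. siPou5f1 lies at the low end of the fibroblast axis and siWdr5 at the high end of the transfected conditions, with Bax highest in the former and lowest in the latter.

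The time course asked how the targets move through the first 6 days without transfection. 4 of the 6 tested members differed between days, beside 42.5% of all genes: Ccng1 (adjusted p = 1.14e-05), Mdm2 (7.00e-05), Cdkn1a (0.000334) and Trp53inp1 (0.00983). Each of these 4 had its highest mean on day 3. Phlda3 (adjusted p = 0.0721) and Bax (0.351) did not pass.

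**Figure D4:**
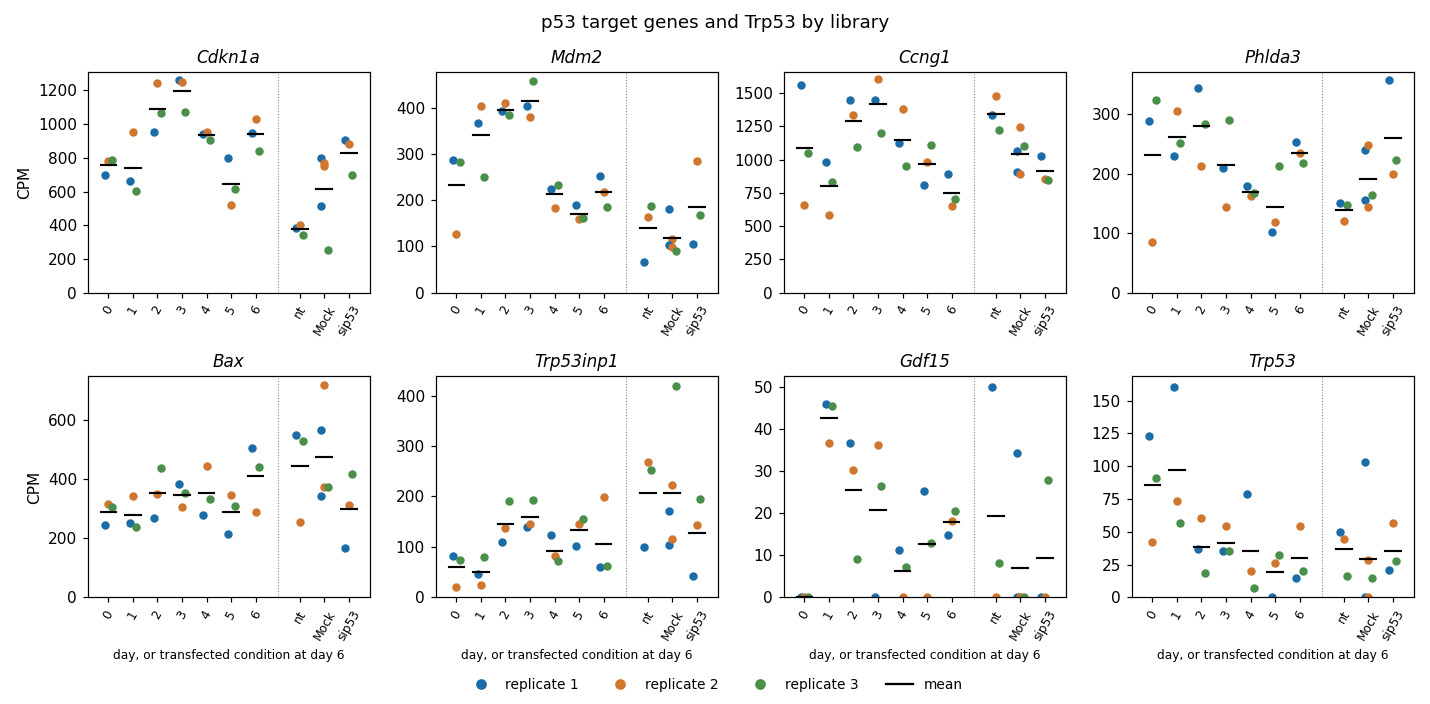
CPM of each library (vertical axis, from 0) for the 7 targets and Trp53, on days 0 to 6 of the time course and in the transfected conditions nt, Mock and sip53. Points are libraries coloured by replicate and short bars are means. Cdkn1a, Mdm2, Ccng1 and Trp53inp1 have their highest daily mean at day 3, and the 3 nt libraries of Cdkn1a, at 343 to 404 CPM, sit below those of sip53, at 697 to 903 CPM.

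Cdkn1a had 698, 783 and 786 CPM at Day00 and 1259, 1247 and 1073 CPM at Day03. The groups did not overlap, and the difference was 0.61 (SE 0.20, adjusted p = 0.0265). The mean was 643 CPM at Day05 and was 939 CPM at Day06, which differed from Day00 by 0.26 (SE 0.20, adjusted p = 0.379). Days 3, 4, 5 and 6 did not overlap from 1 day to the next. Trp53inp1 had 82.1, 21.2 and 74.5 CPM at Day00 and 140, 145 and 194 CPM at Day03, a difference of 1.38 (SE 0.48, adjusted p = 0.0444). These were 2 of 6 members at Day03, beside 10.9% of all genes, and DESeq2 and limma called 0 of the 6. Both calls were lost whichever 1 replicate was left out, with an adjusted p of 0.0996 to 0.162 for Cdkn1a and 0.0552 to 0.316 for Trp53inp1.

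Mdm2 held 287, 127 and 281 CPM at Day00 and 402, 379 and 457 CPM at Day03, a difference of 0.78 (SE 0.30, adjusted p = 0.0747). At Day04 it was at 224, 182 and 232 CPM, below every library of Day03, and it stayed there to Day06. Over the 7 days its level fell by 0.12 per day on the log2 scale (SE 0.04, adjusted p = 0.0183), the 1 member with a linear trend, beside 28.4% of all genes. Without 1 replicate at a time the adjusted p of the trend was 0.0696 to 0.218. Ccng1 held 1560, 656 and 1051 CPM at Day00, a wide spread, and 890, 651 and 702 CPM at Day06, a difference of -0.54 (SE 0.19, adjusted p = 0.0258). It was the 1 member called at Day06, beside 22.2% of all genes, and the call was lost whichever 1 replicate was left out (adjusted p of 0.0542 to 0.356). On day 3 it stood at 1451, 1608 and 1196 CPM (0.36, SE 0.18, adjusted p = 0.214).

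On days 1, 2, 4 and 5 edgeR called 0 of 6 members against Day00, where it called 9.89%, 11.6%, 18.7% and 31.9% of all genes. At an unadjusted p under 0.05 there were 1, 3, 0 and 2 members on these days, while DESeq2 called 0, 0, 0 and 1 and limma 1, 0, 0 and 0. On day 2 all 6 fitted differences were above 0, with a median of 0.39 beside 0.02 over all genes, and on day 5 only that of Trp53inp1 was (median -0.20, beside 0.03). Phlda3 stood at 287, 84.7 and 323 CPM at Day00 and 101, 119 and 213 CPM at Day05, and Bax at 246, 318 and 306 CPM at Day00 and 504, 289 and 443 CPM at Day06. In both genes 1 library was as far from its replicates as the days were from each other.

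Gdf15 had 0 counts in each Day00 library and 2, 3 and 4 counts at Day01. Against a floor of 3 counts over the Day00 libraries, its observed level at Day01 was 3.57-fold that floor. At Day02, Day03 and Day06 it was 1.73-fold, 1.48-fold and 1.43-fold the floor, and at Day04 and Day05 it lay under the floor. Counting error of the later days is not in these ratios, so they are not lower bounds of a rise. Over the transfected libraries the median was 0 counts. Trp53 went the other way: its counts summed over replicates were 19, 18, 9, 9, 10, 7 and 7 on days 0 to 6. In the fit with low genes it fell by 0.31 per day (SE 0.09, adjusted p = 0.00615), and at Day05 it was lower than at Day00 by 1.89 (SE 0.70, adjusted p = 0.0267). It did not pass on the other days (adjusted p of 0.0739 to 0.963) or in the test over all days (0.0511). Summed fibroblast genes went over the same days from 6445 to 8152 CPM at Day00 to 3637 to 3950 CPM at Day03 and 2386 to 3368 CPM at Day06. Their part in the course of the members was not tested.

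The transfected controls were then set beside untransfected cells of the same day. Cdkn1a was lower in nt than at Day06, where it held 950, 1030 and 838 CPM, by 1.31 (SE 0.22, adjusted p = 4.93e-07). Ccng1, at 890, 651 and 702 CPM at Day06, was higher in nt by 0.84 (SE 0.18, adjusted p = 0.000142), and Trp53inp1, at 59.3, 199 and 61.4 CPM, by 1.24 (SE 0.40, adjusted p = 0.0137). For Cdkn1a and Ccng1 no library of nt overlapped those of Day06, nor for Phlda3, which did not pass (-0.71, SE 0.33, adjusted p = 0.0992). These were 3 of 6 members, beside 26.6% of all genes, and without 1 replicate at a time the adjusted p was 5.04e-05 to 0.000296 for Cdkn1a, 0.000330 to 0.00977 for Ccng1 and 0.00888 to 0.507 for Trp53inp1. The call of Trp53inp1 was lost without replicate 3, where its difference was 0.57.

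The same 3 members were called, in the same directions, in Mock and in the mean of all transfected conditions, comparisons that share the Day06 libraries with the first. In Mock, Cdkn1a differed from Day06 by -0.70 (SE 0.20, adjusted p = 0.00395), Ccng1 by 0.48 (SE 0.18, adjusted p = 0.0330) and Trp53inp1 by 1.38 (SE 0.40, adjusted p = 0.00412), beside 28.9% of all genes called. In the mean of all transfected conditions the differences were -0.63 (SE 0.14, adjusted p = 9.00e-05), 0.42 (SE 0.14, adjusted p = 0.0116) and 0.78 (SE 0.32, adjusted p = 0.0424), beside 37.5% of all genes. Trp53inp1 depended on replicate 3, which holds the Mock library at 418 CPM: without it the difference was 0.30 in Mock (adjusted p = 0.743) and 0.11 in the mean (0.868), and in the mean the call was lost without replicate 1 too (0.125). Without replicate 3 the call of Cdkn1a was lost in Mock (-0.47, adjusted p = 0.161), and in the mean it was kept whichever 1 was left out (0.00111 to 0.00732). Ccng1 was called with 1 replicate left out only without replicate 1 (0.0183 in Mock, 0.00963 in the mean) and not without replicate 2 or 3 (0.0564 to 0.228). Of 6 other alternatives, 0 kept the call of Ccng1 in Mock (0.0691 to 0.732), 3 kept it in the mean, and 1 kept that of Trp53inp1 in the mean (up to 0.587). Mdm2 lay below Day06 in these comparisons too (-0.86 in Mock, -0.53 in the mean), without passing (adjusted p = 0.0722 and 0.0706). The transfected cells were plated onto the transfection mix and kept with it for 1 day before induction, while the others were transferred at day 0. The timing of re-plating and the time since transduction therefore differed as well, and they cannot be told apart from the siRNA or reagent. Summed fibroblast genes were lower in nt and Mock (1388 to 2248 CPM) than at Day06, and their part was not tested.

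A list of 36 further p53 targets gave 10 genes that passed the filter. In sip53 against nt edgeR called 0 of the 10, with 1 at an unadjusted p under 0.05 and 0 by DESeq2 or limma. Over the days, 4 of 10 differed, close to the 42.5% of all genes: Perp, a membrane protein of desmosomes and apoptosis, Dcxr, Ephx1 and Eda2r. Perp was higher than at Day00 from day 2 on, by 2.53 (SE 0.64, adjusted p = 0.00200) at Day02 and by 3.25 (SE 0.56, adjusted p = 8.67e-07) at Day04, and its mean level went from 15.1 CPM at Day00 to 110 CPM at Day06. The 6 epithelial markers, none of which passed the filter, held 0 to 20.5 CPM in sum at Day00, 11.2 to 30.4 CPM at Day04 and 74.2 to 217 CPM at Day06, and their part in the values of Perp was not tested. Against nt, 2 of the 10 were called in siWdr5 and 1 in siBard1, beside 27.2% and 10.3% of all genes, and 2 of the 10 in nt against Day06, beside 26.6%. Zmat3, an RNA-binding protein, was higher than nt in siWdr5 (1.14, SE 0.37, adjusted p = 0.0139) and in siBard1 (1.07, SE 0.38, adjusted p = 0.0486), and lower in nt than at Day06 by 1.19 (SE 0.37, adjusted p = 0.0103). Rps27l, a ribosomal protein paralog, was lower in siWdr5 than in nt by 0.97 (SE 0.35, adjusted p = 0.0249) and higher in nt than at Day06 by 1.09 (SE 0.35, adjusted p = 0.0124). Against the other transfected conditions it was higher in siNcor1 (1.11, SE 0.20, adjusted p = 5.63e-06) and in siPou5f1 (0.76, SE 0.22, adjusted p = 0.00967). It was the 1 gene of 10 called in each, beside 11.6% and 15.6% of all genes. In siWdr5 3 of the 10 were called, beside 38.7%. Rps27l was lower there (-0.80, SE 0.26, adjusted p = 0.0100), and Zmat3 (0.86, SE 0.24, adjusted p = 0.00241) and Sesn2 (0.81, SE 0.29, adjusted p = 0.0205) were higher. In siBard1 Zmat3 was higher (0.78, SE 0.24, adjusted p = 0.0176), 1 of 10 beside 14%. The call in siBard1 against nt was not made by DESeq2 or limma. With 1 replicate left out at a time, Perp at Day04 and Rps27l in siNcor1 kept their calls. Against nt, the calls of Zmat3 in siBard1 and Rps27l in siWdr5 were lost each time (adjusted p of 0.0800 to 0.249 and 0.0521 to 0.208). Lost at least once were those of Zmat3 in siWdr5 against nt (adjusted p of up to 0.170) and of Rps27l in siPou5f1 (0.323). So were those of Zmat3 (0.196) and Rps27l (0.117) in nt against Day06, and of Perp at Day02 (0.219) and Day03 (0.446). At Day03 DESeq2 called 0 of the 10 and limma 3. The calls in siWdr5 and siBard1 against the other conditions are not given with a replicate left out.

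Among 18 regulators of p53, 5 passed the filter and 2 differed over the days, again near the 42.5% of all genes. Mdm4, which encodes the partner of Mdm2 that holds p53 inactive, rose by 0.28 per day (SE 0.08, adjusted p = 0.00322), and Chek1, a checkpoint kinase, by 0.34 per day (SE 0.12, adjusted p = 0.0192), where 28.4% of all genes had a trend. Chek1 was also lower in siWdr5 than in nt, by 1.37 (SE 0.51, adjusted p = 0.0318), 1 of 5 beside 27.2% of all genes, and neither DESeq2 nor limma called it. nt itself was higher in Chek1 than Day06, by 1.70 (SE 0.53, adjusted p = 0.0102), 1 of 5 beside 26.6%. Against the other transfected conditions Chek1 was lower in siWdr5 by 1.08 (SE 0.41, adjusted p = 0.0245), 1 of 5 beside 38.7%. DESeq2 and limma did not make this last call. With 1 replicate left out at a time the adjusted p reached 0.0809 for the trend of Mdm4 and 0.129 for that of Chek1. It reached 0.375 for Chek1 in siWdr5 against nt and 0.0801 for Chek1 in nt against Day06. Cell-cycle genes that p53 is known to lower through p21 and the DREAM complex were read in a list of 20, of which 11 passed. At Day01, 4 of 11 were higher than at Day00, where 9.89% of all genes were called, Birc5 by 1.89 (SE 0.40, adjusted p = 0.000149) and Mcm2 by 1.88 (SE 0.55, adjusted p = 0.0128) among them. At Day03, 2 of 11 were lower, beside 10.9% of all genes called, Ccna2 by 1.68 (SE 0.55, adjusted p = 0.0265) and Top2a by 1.53 (SE 0.34, adjusted p = 0.000285). At Day04, 2 of 11 were higher than at Day00, Birc5 and Ccnb1, and at Day06, 4 of 11, Birc5, Ccnb1, Mcm2 and Ube2c, by 1.45 to 2.07, beside 18.7% and 22.2% of all genes. Mean Cdkn1a was above that of Day00 on days 2, 3, 4 and 6. The summed level of the list was 1273 to 1465 CPM at Day00, 542 to 921 CPM at Day03 and 2004 to 2440 CPM at Day06. In siBard1, Kif11 (-3.04, SE 0.74, adjusted p = 0.00190), Ube2c (-1.20, SE 0.41, adjusted p = 0.0406) and Top2a (-0.77, SE 0.25, adjusted p = 0.0278) were lower than in nt, 3 of 11 beside 10.3% of all genes. In siWdr5 Pcna was lower, 1 of 11 beside 27.2% (-0.76, SE 0.31, adjusted p = 0.0493), a call that neither DESeq2 nor limma made. Against the other transfected conditions the 1 gene of 11 called in siWdr5 was Mki67, which was higher (0.94, SE 0.26, adjusted p = 0.00236), beside 38.7% of all genes. With 1 replicate left out at a time Birc5 at Day01, Top2a at Day03 and Birc5, Mcm2 and Ube2c at Day06 kept their calls. That of Ccnb1 at Day04 was lost each time (adjusted p of 0.0805 to 0.132). Those of Birc5 at Day04 and Ccnb1 at Day06 were lost at least once (up to 0.149 and 0.334). DESeq2 and limma called 0 of the 11 at Day04. Kif11 in siBard1 kept its call without replicate 1 or 2, was not tested without replicate 3, and lost the call in 1 of 6 other alternatives (adjusted p = 0.0622). Those of Ube2c and Top2a in siBard1 and Pcna in siWdr5 were lost each time (adjusted p of 0.0802 to 0.303, 0.0696 to 0.274 and 0.117 to 0.182), and those of Mcm2 at Day01 and Ccna2 at Day03 at least once (up to 0.238 and 0.369). In sip53 against nt edgeR called 0 of the 11, with 0 at an unadjusted p under 0.05 and 0 by DESeq2 or limma.

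Likeness between members is given as a description. Over the means of all 42 conditions, on the log2 CPM scale with the replicate removed, the highest correlation between members was that of Cdkn1a with Mdm2 (r = 0.74, and 0.60 over the 35 transfected conditions). Cdkn1a with Phlda3 gave 0.46 (0.44 over the days and 0.41 over the transfected conditions), with Ccng1 0.12, with Trp53inp1 -0.02 and with Bax -0.29. Over the 7 days alone Cdkn1a gave 0.75 with Bax, 0.67 with Mdm2, 0.62 with Ccng1 and 0.54 with Trp53inp1, and over the 35 transfected conditions -0.26 with Bax, -0.07 with Ccng1 and 0.26 with Trp53inp1. The genes most like Cdkn1a were Ftl1 (r = 0.78), Gnai2 (0.77) and Gsk3b (0.76), and those most like Mdm2 were Gm22751 (0.82), Jak1 (0.82) and Phldb2 (0.81). For Bax they were Cox8a (0.70), Rps3a1 (0.67) and Gm7384 (0.66), and for Trp53inp1 Gm11407 (0.69), Adh7 (0.66) and Ano3 (0.61). Phlda3 was most like Tuba1a (0.59), Wdr26 (0.55) and Lgals1 (0.55), and Ccng1 most like Scoc (0.55), Vegfd (0.50) and Ube2r2 (0.49). These values describe likeness over conditions that share depth, pools and scaling, and they were not tested.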

How the data were processed

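The deposited count table holds UMI-corrected, unnormalized counts per gene symbol, which the authors made with Bowtie2 on mm10 and the CEL-Seq2 pipeline with GENCODE vM13 (versions of the aligner and pipeline: not given in the sources used here). A second deposited table holds log2 values of 10568 genes, normalized by size factors and regressed on batch by the authors, and was used only for an alternative with limma. Conditions and replicates were read from column names. In replicate 3 the Mock column kept by the authors was matched to its counts by correlation (0.982, against 0.0128 for the other), and columns of the same name were otherwise taken in their order. The 2 libraries that are not in the log2 table (6403 and 7981 counts) were left out. Each of 131 replicate pairs differed by more than sampling noise (chi-square per gene of at least 1.30), so none was counted as 1 sample.

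Counts were analysed with edgeR 4.0.16 (R 4.3.3): TMM scaling (factors 0.825 to 1.39), filterByExpr by condition, and the quasi-likelihood test with a term per condition and per replicate over 127 libraries (83 residual degrees of freedom, common dispersion 0.0158), p adjusted by Benjamini-Hochberg over the 3013 genes within a comparison, threshold 0.05, two-sided. A second fit of 3087 genes added listed genes under the filter, Trp53 among them. Intervals are exact Poisson or conditional binomial at 95% and, like the floor of 3 counts, cover counting error only. The scripts were tested on simulated data. Alternatives were RLE scaling, no filter, DESeq2 1.42.0, limma 3.58.1, no replicate term, 1 replicate left out, every library of the count table, nt with Mock as control, the compared libraries alone, and a joint adjustment over siRNAs. Comparisons of each siRNA and of nt with the other transfected conditions, and of Mock and all transfected conditions with Day06, were added after seeing the data. The replicate number marks a shared sequenced pool. Libraries of a replicate deviated from their condition means together (median correlation 0.0981, against -0.0685 between replicates).

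The members and the gene lists were chosen with earlier results of these data known. Named genes are the members and Trp53, at most 5 called genes per list and comparison, and the 3 genes most correlated with each member. Gene positions are from GENCODE vM21 on GRCm38, and promoter sequences from RefSeq on GRCm38.p6, which matched 6 of the 7 members. Trp53inp1 was not matched. The results of 1 siRNA condition are not reported here by name or drawn singly, and it stays in the fits and counts.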

Additional observations from a re-analysis of the deposited data

Results flagged for a closer look

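In 3 genes the highest of the 5 Mock libraries stood apart from the rest, by the gap to the next library over the whole range, with 0.71 as the limit for 5 samples. For Mdm2 the share was 0.717: 1 library of replicate 1 held 181 CPM and the others 89.6 to 115 CPM. For Trp53 it was 0.720, with 3 counts (103 CPM) in the other library of replicate 1 and 0 or 1 count elsewhere. For Gdf15 it was 1, from 1 count in that same library and 0 counts in the other 4. Each rests on 7 counts or fewer, and a limit set at the 95% level is passed by chance in some groups.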

How the results depend on the processing

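All values here are numbers of member tests past the threshold. The share of all genes called under each alternative is not given, so a change in these numbers is not a result about the members. With the replicate as a term the linear trend gave 1, each day against day 0 gave 3, siWdr5, siBrca1 and siBard1 against nt 6, each siRNA against nt 22, and nt against the other transfected conditions 2. With no replicate block these were 0, 0, 3, 5 and 0, and the block changed no other count by over 1.5 times. With 1 replicate left out they were 0 to 0, 0 to 1, 2 to 3, 5 to 7 and 0 to 0, while all days together gave 2 to 4 (4 with all replicates) and each siRNA against the other transfected conditions 5 to 7 (11 with all). By limma on the deposited log2 values, all days together, the linear trend, the siWdr5, siBrca1 and siBard1 comparisons and nt against the other conditions gave 0, each day against day 0 and nt against Day06 (3 by edgeR) gave 1, any difference among transfected conditions 2 (4 by edgeR), and each siRNA gave 3 against nt and 3 against the others. With no filter the trend, the days and sip53 against nt (1 by edgeR) gave 0, nt against the others 1, siWdr5, siBrca1 and siBard1 gave 2 and each siRNA 5. The trend gave 3 by DESeq2, 3 with RLE and 2 with every library of the count table. nt against the others gave 1 with RLE and 1 with every library of the count table. Each siRNA gave 12 against nt and Mock together, and each day gave 6 with the compared libraries alone. sip53 against the other conditions and Mock against nt gave 0 in every alternative run. The cause of these shifts was not tested, except that without a filter 30778 genes are tested and that leaving out a replicate takes away libraries.

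Each call of a member in a single comparison was also followed by itself. Of 48 such calls, 3 were kept in every alternative run and without each replicate, all of Cdkn1a: siPou5f1 against the other conditions, and nt and all transfected conditions against Day06. With the other transfected conditions counted as a further control, 252 alternative values kept their call, 254 lost it and 0 changed sign. For other listed genes, 9 of 44 calls were kept throughout, with 275 values kept, 171 lost and 0 changed in sign. RLE scaling shifted the median of all genes by 0.17 on the log2 scale in siWdr5 against nt, by -0.14 in nt against Day06 and by -0.16 in Day06 against Day00. Low counts limit what can be said of Trp53, Gdf15 and the targeted genes.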
